A study of Mus musculus with 12 samples.

Results

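The natriuretic peptide system was followed through 8 genes, out of 78317 gene IDs in the deposited count table: the peptide genes Nppa, Nppb and Nppc, the receptor genes Npr1, Npr2 and Npr3, and the protease genes Corin and Furin. The genes were chosen by name for their role in the system, with earlier results of these data known. All 8 were found in the table. Reads came from ventricle RNA, sequenced in bulk, of C57BL/6J mice in 2 groups. The first group was 6 offspring of sires that had a cardiac cryoinjury, a wound made by freezing the heart, on postnatal day 1. The other was 6 offspring of uninjured sires. The offspring of both groups were themselves uninjured, and no allele or drug was named for either. The protocol label gave day 1 for the injury while the group label read P0, and gave collection at 3 weeks while calling the animals adult, and neither was altered here. The question set by the design is how ventricles of offspring differ with the neonatal injury history of the sire.

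Natriuretic peptides are hormones and local signals that lower blood volume and pressure and restrain growth of heart muscle and scar. Nppa encodes atrial natriuretic peptide, made mainly by atrial muscle and, before birth and under load, by ventricular muscle. Nppb encodes B-type natriuretic peptide, which rises in the strained ventricle, and Nppc encodes C-type natriuretic peptide, known chiefly from endothelium and brain. Corin is a membrane protease of heart muscle cells that cuts the atrial propeptide, and furin is a protease of the secretory pathway that cuts the B-type and C-type propeptides. The peptides act through the guanylyl cyclase receptors encoded by Npr1 (atrial and B-type peptide) and Npr2 (C-type peptide), which make cGMP, while the receptor encoded by Npr3 takes up and clears all of the peptides.

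What makes the peptides a family is a ring of 17 residues closed by a disulfide bond. The 51 bases that encode it are shown for Nppb and Nppc, to let a reader see how alike and how distinct related members are at the level that reads are counted. They were read from GENCODE M21 transcripts (GRCm38) and lie in exon 2 of each gene, at chr4:147986464-147986514 on the plus strand for Nppb and chr1:86669667-86669717 on the minus strand for Nppc. Capitals mark the bases that are identical in both.
Nppb: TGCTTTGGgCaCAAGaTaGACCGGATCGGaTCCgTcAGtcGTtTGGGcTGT
Nppc: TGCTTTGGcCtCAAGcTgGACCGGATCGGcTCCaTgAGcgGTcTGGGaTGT
The stretches were identical at 40 of 51 bases (78.4%).

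Nppa and Nppb are neighbours. In the counted annotation (GRCm39) Nppb ran from 148070245 to 148071662 and Nppa from 148085179 to 148086536 on the plus strand of chromosome 4, 13516 bp apart, each with 3 exons. The 250 bases before each start are shown because the levels of these neighbours are set side by side in what follows. They come from RefSeq (GRCm38.p6), chr4:148000472-148000721 for Nppa and chr4:147985650-147985899 for Nppb, both on the plus strand. Capitals mark matches, on either strand, to motifs named for factors of heart muscle, and to the TATA box.
Nppa: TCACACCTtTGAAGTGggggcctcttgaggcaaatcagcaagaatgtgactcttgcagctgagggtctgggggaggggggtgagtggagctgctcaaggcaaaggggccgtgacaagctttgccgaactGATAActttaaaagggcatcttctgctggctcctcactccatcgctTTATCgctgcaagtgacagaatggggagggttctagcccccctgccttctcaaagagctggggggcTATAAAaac
Nppb: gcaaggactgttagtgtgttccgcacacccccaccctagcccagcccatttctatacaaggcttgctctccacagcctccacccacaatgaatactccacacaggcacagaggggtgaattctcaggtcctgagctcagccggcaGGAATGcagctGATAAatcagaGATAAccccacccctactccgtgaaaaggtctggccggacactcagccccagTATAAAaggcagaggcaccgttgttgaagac
Both promoters held 2 matches to GATAA, the core bound by GATA factors, which 22.6% of 32851 RefSeq promoter windows held at least once. Both also held TATAAA (12.4% of windows). The Nppa window alone of the pair held AGGTGTGA, a T-box motif found in 1.12% of windows, on the minus strand at positions -250 to -243 from the start. It also held TNAAGTG, an NKX motif found in 10.1%, at -241 to -235. The Nppb window alone of the pair held GGAATG, the M-CAT motif (12.6%), at -105 to -100. The CArG box, searched under that name and held by 1.47% of windows, matched neither. These are matches of letters and not measured binding, and the marked motifs did not overlap.

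The labels named replicate 16 of the injured-sire group as an outlier of a principal component analysis that the submitters left out, so 5 injured-sire libraries (replicates 12, 13, 14, 15 and 17) were compared with 6 uninjured-sire libraries (replicates 18 to 23). Values of replicate 16 are given apart. Library totals lay between 30537315 and 42090257 counts. Per the labels the injured-sire offspring were 3 males and 3 females, the uninjured-sire offspring 4 males and 2 females. Replicate 16, left out, read as male by its Y-linked and Xist levels, so the injured-sire libraries compared held fewer males than labelled. The labels did not name the sex of a given animal, its sire, its litter or its batch. Litter mates therefore cannot be told apart from unrelated animals, and p-values measure the spread between these libraries. All 9 genes of the ventricular list and all 11 atrial markers were detected in every library. The ventricular list summed to 66861 to 79447 CPM (counts scaled to a fixed library size) in injured-sire libraries. In uninjured-sire libraries it summed to 62900 to 73329 CPM. Of this, Myh6 alone averaged 38162 CPM in injured-sire and 35401 CPM in uninjured-sire libraries. Mouse atria express Myh6 too, so the sum is not a measure of ventricle alone. The atrial marker Myl4 averaged 733 and 702 CPM, so these levels do not show whether the samples were free of atrium. Over all 17130 genes tested, 18 (0.105%) had a Benjamini-Hochberg adjusted p below 0.05 in edgeR's quasi-likelihood test, and 1534 (8.96%) had an unadjusted p below 0.05.

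Per exon length, the system was led by Nppa by a wide margin, followed by Corin and Nppb, with the receptors well below. In TPM (counts per exon length, scaled to a fixed sum), Nppa averaged 5944 ± 600 (SD, n = 12) and ranked 15 among all genes. Corin averaged 160 ± 17.02 TPM and Nppb 144 ± 40.5 TPM, and these neighbours in the order overlapped, with Corin higher in 9 of 12 libraries. Npr2 followed with 38.7 ± 2.58 TPM and Furin with 37.8 ± 3.12 TPM, which also overlapped, Npr2 being higher in 8 of 12. Npr1 lay at 27.1 ± 3.10 TPM and Npr3 at 17.5 ± 2.98 TPM, and their ranges overlapped across libraries. In TPM Npr3, the clearance receptor gene, was the lowest of the receptor genes in each of the 12 libraries. This order depends on the merged exon length, 9389 bp for Npr3 against 4783 bp for Npr1 and 4667 bp for Npr2. In CPM Npr3 averaged 62.2 over the 12 libraries, above Npr1 (49.1) and below Npr2 (68.8). Nppc was close to absent, at 0.361 ± 0.466 TPM.

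**Figure D1:**
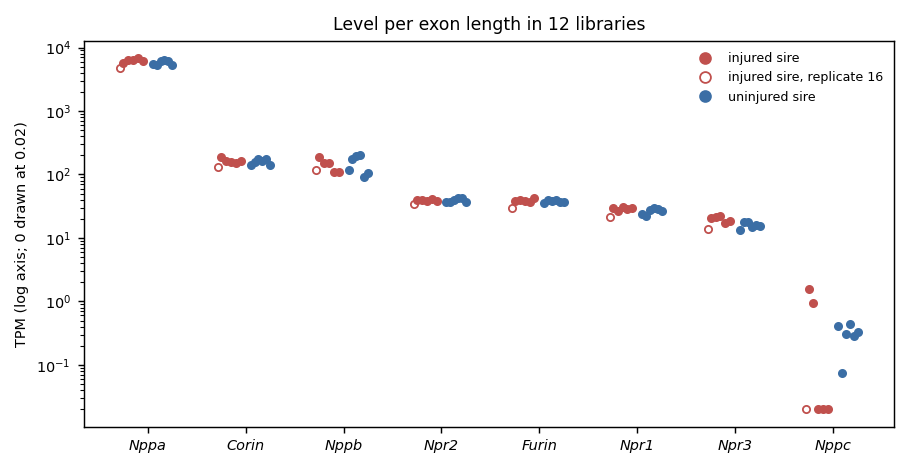
TPM of the 8 natriuretic genes on a log axis, 1 point per library, with 6 injured-sire libraries (red, replicate 16 open) left of 6 uninjured-sire libraries (blue) for each gene, and values of 0 drawn at 0.02. Nppa lies near 5944 TPM, more than a log10 unit above Corin and Nppb, and Nppc is the only gene with libraries at 0.

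Of the 7 genes tested, none passed the threshold in the comparison of 5 with 6 libraries (0 of 7, against 0.105% of all genes). The DESeq2 Wald test, which called 0.759% of all genes, and limma voom, which called 0.123%, also called 0 of the 7. At an unadjusted p below 0.05 edgeR took 1 of them, Npr3, which was higher, against 8.96% of all genes (4.28% for higher genes alone). Signs were split, with 4 of 7 higher and 3 lower in injured-sire offspring, and the median log2 fold change was 0.01, against 0.00 over all genes, of which 8574 of 17130 were higher. The 2 groups overlapped in every one of the 8 genes, while 181 genes of all tested (1.06%) had groups that did not overlap.

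Nppa (ENSMUSG00000041616) was close to level between the groups. It lay at 1838, 2057, 2007, 2188 and 1978 CPM in the injured-sire libraries, in the order of replicates 12, 13, 14, 15 and 17, against 1944, 1818, 2047, 2045, 1984 and 1762 CPM in uninjured-sire libraries 18 to 23. Replicate 15 of the injured-sire group was the highest and replicate 23 of the uninjured-sire group the lowest of these 11, and the ranges overlapped over most of their width. The means were 2014 ± 127 CPM (SD, n = 5) in injured-sire and 1933 ± 119 CPM (SD, n = 6) in uninjured-sire libraries. The log2 fold change was 0.06 ± 0.0540 (SE, edgeR adjusted p = 0.815), with a 95% confidence interval of -0.05 to 0.17, or 0.964-fold to 1.13-fold. Replicate 16 had 1770 CPM, next to the lowest of all 12. The antisense gene Gm13054 shares 596 bp of exon with Nppa on the opposite strand. Counting was by strand, and Gm13054 had 0.0317% to 0.0663% as many counts as Nppa in the 5 injured-sire libraries and 0.0371% to 0.113% in the uninjured-sire libraries. Npr1, Npr2, Npr3, Corin and Furin likewise share 112 to 559 bp of exon with genes on the opposite strand, kept apart by the strand setting.

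Nppb (ENSMUSG00000029019) varied far more between animals than Nppa did, within both groups. It lay at 54.8, 44.6, 43.3, 31.7 and 31.8 CPM in injured-sire replicates 12, 13, 14, 15 and 17, against 37.0, 54.4, 58.8, 59.3, 26.6 and 31.5 CPM in uninjured-sire replicates 18 to 23. High libraries (near 55 to 59 CPM) and low ones (under 33 CPM) stood in both groups. The uninjured-sire group held both the highest and the lowest of the 11, which were 2.23-fold apart, against 1.24-fold for Nppa. The means were 41.2 ± 9.73 CPM (SD, n = 5) in injured-sire and 44.6 ± 14.6 CPM (SD, n = 6) in uninjured-sire libraries. The log2 fold change was -0.11 ± 0.259 (SE, edgeR adjusted p = 0.946), and its 95% confidence interval of -0.70 to 0.47 holds changes from 0.617-fold to 1.38-fold, so a moderate change either way was not detectable with these animals.

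The spread of Nppb was set against other genes of similar or higher level. Its within-group SD of log2 CPM, 0.44, was higher than that of 98.9% of the 4787 genes averaging 5 or more in log2 CPM, while Nppa, at 0.09, exceeded 33.3% of them. The coefficient of variation between animals that edgeR fitted was 29.2% for Nppb, against 12.1% for the trend at its level, and 9.06% for Nppa, against 10.8%. Counting error at the lowest Nppb count was 3.22%, far under that spread. Among the tested natriuretic genes Nppb was the only one whose fitted variation lay above the trend, the others lying between 9.06% and 11.1%.

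The ratio of the peptide transcripts moved with Nppb. Per exon length Nppa was 42.5-fold higher than Nppb over 12 libraries (geometric mean), with a low of 30.2-fold in uninjured-sire replicate 19 and a high of 67.3-fold in uninjured-sire replicate 22. The mean log2 ratio was 5.49 ± 0.41 (SD, n = 5) in injured-sire and 5.36 ± 0.48 (SD, n = 6) in uninjured-sire libraries. Although their genes lie side by side, the levels of Nppa and Nppb in log2 CPM had a Pearson r of -0.06 across the 11 libraries (Spearman rho 0.16, permutation p = 0.868 and 0.632, adjusted over 28 pairs 0.956 and 0.909; -0.12 for r without the 2 libraries farthest from the median of Nppa).

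Nppc (ENSMUSG00000026241; chromosome 1, 86594013 to 86598293, minus strand) was too low to test. It had 23, 12, 0, 0 and 0 counts in injured-sire replicates 12, 13, 14, 15 and 17, and 0 in replicate 16, against 6, 1, 5, 7, 4 and 4 counts in uninjured-sire replicates 18 to 23. The libraries with the most and those with none were both in the injured-sire group, and every uninjured-sire library had at least 1 count. A count of 0 allows an expected count of up to 3, which is 0.0728 to 0.0883 CPM in the 4 libraries at 0. The 0 counts there therefore do not show that Nppc was absent. The lung surfactant gene Sftpc had 19, 6, 0, 2 and 0 counts in the same 5 injured-sire libraries and 7, 0, 0, 7, 0 and 0 in the uninjured-sire libraries. The airway gene Scgb1a1 had 2274, 3313, 6960, 10427 and 627 counts in the same injured-sire libraries and 5574, 12, 8, 5006, 57 and 9 in the uninjured-sire libraries. It was highest in injured-sire replicates 14 and 15, where Nppc was at 0. The part of lung RNA in these few Nppc counts was not tested.

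**Figure D2:**
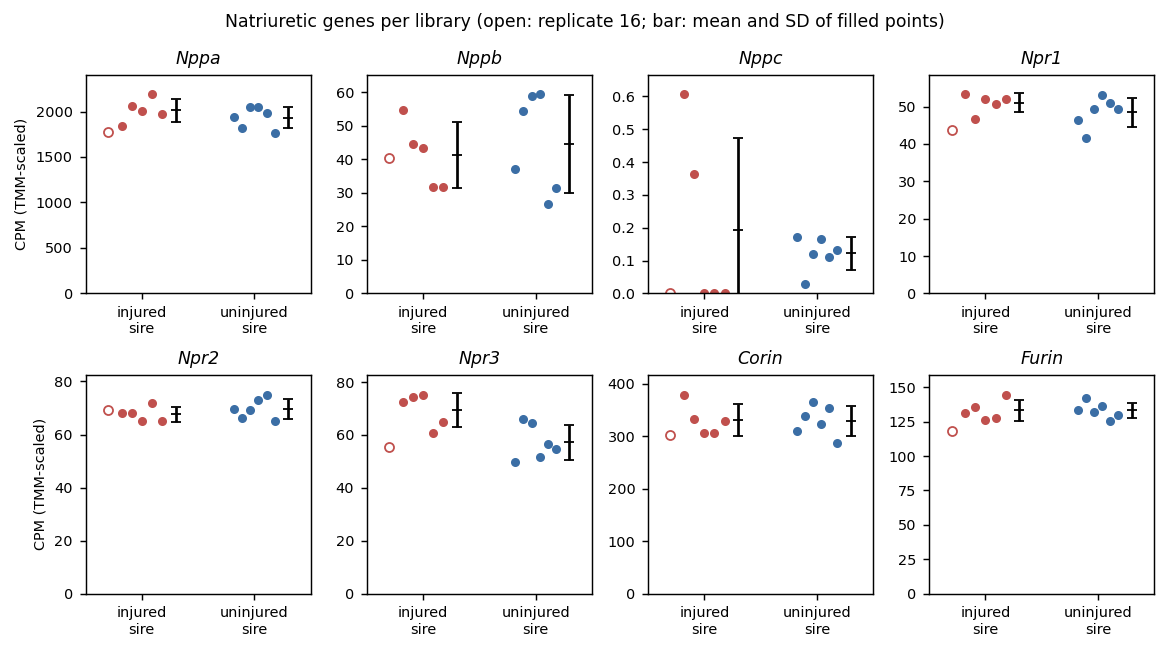
CPM after TMM scaling for the 8 genes, each panel from 0, with the injured-sire libraries in red left of the uninjured-sire libraries in blue, 1 point per library; the bar is the mean and SD of the 5 or 6 libraries compared, and replicate 16 is open. The groups overlap in every panel, Nppb spreads from 26.6 to 59.3 CPM, and Npr3 has 3 of 5 injured-sire libraries above all 6 uninjured-sire ones.

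Among the receptors, the cyclase-linked pair was close to level and the clearance receptor gene was higher in injured-sire offspring, without passing the threshold. Npr1 (ENSMUSG00000027931; chromosome 3, 90357898 to 90373173, minus strand), the receptor gene for the atrial and B-type peptides, lay at 53.3, 46.8, 52.1, 50.8 and 52.1 CPM in injured-sire libraries, against 46.4, 41.7, 49.4, 53.1, 50.9 and 49.3 CPM in uninjured-sire libraries. Of the injured-sire values 4 of 5 were above the uninjured-sire median, 1 of them just above the uninjured-sire range. The log2 fold change was 0.07 ± 0.0652 (SE, edgeR adjusted p = 0.808; 95% confidence interval -0.06 to 0.21). Npr2 (ENSMUSG00000028469; chromosome 4, 43631935 to 43651244, plus strand), the receptor gene for C-type peptide, lay at 68.0, 68.2, 65.1, 71.9 and 65.1 CPM in injured-sire libraries, against 69.8, 66.4, 69.1, 72.9, 75.0 and 65.3 CPM in uninjured-sire libraries. These ranges overlapped over most of their width, and Npr2 had the smallest ratio of highest to lowest library after Furin among the 11 compared. Its log2 fold change was -0.04 ± 0.0555 (SE, edgeR adjusted p = 0.878; 95% confidence interval -0.16 to 0.07).

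Npr3 (ENSMUSG00000022206; chromosome 15, 11839982 to 11907373, minus strand) showed the largest shift of the 7 genes tested. It lay at 72.5, 74.5, 75.2, 60.6 and 64.8 CPM in injured-sire replicates 12, 13, 14, 15 and 17, against 49.7, 66.1, 64.4, 51.8, 56.8 and 54.8 CPM in uninjured-sire replicates 18 to 23. All 5 injured-sire libraries were above the uninjured-sire median of 55.8 CPM and 3 were above every uninjured-sire library. Replicates 15 and 17 of the injured-sire group were below uninjured-sire replicate 19, so the groups overlapped. The means were 69.5 ± 6.49 CPM (SD, n = 5) in injured-sire and 57.2 ± 6.68 CPM (SD, n = 6) in uninjured-sire libraries. The log2 fold change was 0.28 ± 0.0779 (SE), that is 1.21-fold with a 95% confidence interval of 1.09-fold to 1.36-fold. The edgeR p of 0.00171 ranked 141 among 17130 genes and became 0.206 after adjustment. Replicate 16, the injured-sire library left out, had 55.3 CPM and lay below the uninjured-sire median, and with it the log2 fold change was 0.23 (edgeR adjusted p = 0.438; 0 of the 7 genes passed, against 0.0836% of all genes).

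The Npr3 estimate was positive in all 25 alternative analyses, from 0.18 to 0.42 on the log2 scale, with adjusted p from 0.0301 to 0.943. It passed the threshold in 2 of them. With airway and fat marker scores as covariates the log2 fold change was 0.42 ± 0.0830 (SE, edgeR adjusted p = 0.0432), where 0.105% of all genes passed. With no filter on low counts it was 0.26 ± 0.0691 (SE, edgeR adjusted p = 0.0301), where 0.619% passed. With a clock score as covariate it was 0.18 ± 0.133 (SE, edgeR adjusted p = 0.943), and no gene of the table passed. The score itself differed between the groups. In log2 CPM its 9 added genes averaged 5.76 ± 0.26 (SD, n = 5) in injured-sire and 5.07 ± 0.38 (SD, n = 6) in uninjured-sire libraries. Its 3 subtracted genes averaged 3.55 ± 0.39 and 4.40 ± 0.26 in the same order. Score and group therefore cannot be fully told apart in that fit. The airway and fat levels also differed in mean between the groups. In log2 CPM the airway list averaged 2.17 ± 1.35 (SD, n = 5) in injured-sire and -0.97 ± 2.97 (SD, n = 6) in uninjured-sire libraries. The fat list averaged 3.87 ± 0.48 and 2.74 ± 1.45 in the same order. Those scores and group likewise cannot be fully told apart. No single library left out brought Npr3 past the threshold, with estimates of 0.24 to 0.33 and adjusted p of 0.105 to 0.450.

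**Figure D3:**
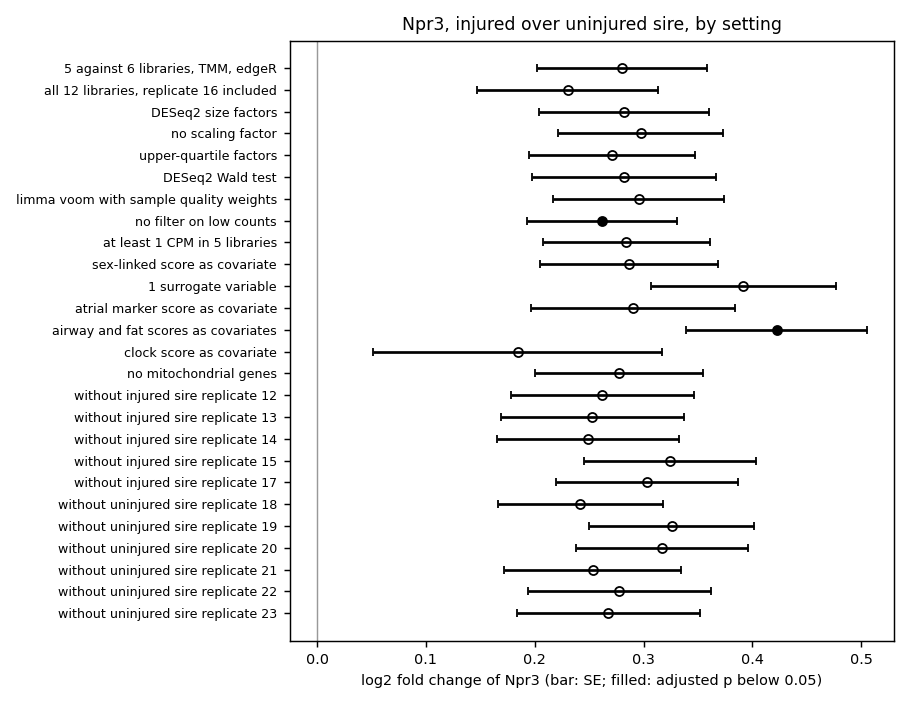
Log2 fold change of Npr3, injured-sire over uninjured-sire offspring, in the comparison of 5 with 6 libraries (top row) and in 25 alternatives; bars are SE and filled points have an adjusted p below 0.05. All 26 estimates lie right of 0, between 0.18 and 0.42, and 2 are filled.

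Npr3 is known from endocardium, fibroblasts and vessel wall as well as from fat, so marker lists of these and other cells were set beside it, and no gene of the lists in this paragraph passed the threshold. Airway markers summed to 41.2 to 675 CPM in injured-sire libraries (median 258) and 0.914 to 419 CPM in uninjured-sire libraries (median 3.68), with 1.08 CPM in replicate 16. Of the 9 airway genes tested 9 had positive fold changes. Fat markers summed to 246 to 813 CPM in injured-sire and 54.0 to 606 CPM in uninjured-sire libraries, with 9 of 10 tested genes positive. Smooth muscle and pericyte markers summed to 1692 to 1957 CPM in injured-sire and 1394 to 1666 CPM in uninjured-sire libraries. These sums did not overlap (as in 1.06% of single genes), but the mean log2 CPM of the list did. It was 6.83 in injured-sire replicate 17, against 6.84 and 6.86 in uninjured-sire replicates 18 and 21. Of these 8 markers 7 had positive fold changes, and 6 (75.0%, against 8.96% of all genes) had an unadjusted p below 0.05, 5 higher and 1 lower (smallest edgeR adjusted p = 0.192). The lower one was Kcnj8, a pericyte channel gene, at -0.16, and Rgs5, another pericyte gene, stood at 0.01. Pdgfrb and Cspg4, also found in pericytes, stood at 0.07 and 0.17, and Cspg4 was 1 of the 5 higher. Endocardial markers summed to 123 to 157 CPM in injured-sire and 116 to 135 CPM in uninjured-sire libraries, with 5 of 6 positive and 0 at an unadjusted p below 0.05 in edgeR. Fibroblast markers summed to 2997 to 3336 CPM in injured-sire and 2660 to 3369 CPM in uninjured-sire libraries, with 4 of 8 positive, and 3 had an unadjusted p below 0.05, 2 higher and 1 lower. Endothelial markers summed to 1219 to 1399 CPM in injured-sire and 1258 to 1360 CPM in uninjured-sire libraries, with 4 of 9 positive. Macrophage markers summed to 145 to 173 CPM in injured-sire and 158 to 196 CPM in uninjured-sire libraries, with 2 of 8 positive and 3 lower at an unadjusted p below 0.05. Erythroid markers summed to 2224 to 2953 CPM in injured-sire and 2519 to 3538 CPM in uninjured-sire libraries, with 0 of 6 positive and 2 lower at an unadjusted p below 0.05. The part of these cells in the Npr3 values was not tested beyond the airway and fat covariates above. With these the Npr3 estimate was larger, but their scores cannot be fully told apart from group. In bulk tissue more cells of a type and more RNA per cell cannot be told apart.

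The balance of cyclase receptors to clearance receptor leaned with Npr3. Per exon length, the log2 ratio of Npr2 to Npr3 was 0.97 ± 0.18 (SD, n = 5) in injured-sire and 1.30 ± 0.21 (SD, n = 6) in uninjured-sire libraries, that is 1.96-fold and 2.46-fold. The log2 ratio of Npr1 to Npr3 was 0.53 ± 0.17 (SD, n = 5) in injured-sire and 0.74 ± 0.25 (SD, n = 6) in uninjured-sire libraries, or 1.444-fold and 1.667-fold. Replicate 16 had log2 ratios of 1.33 and 0.63. Both ratios overlapped between the groups and were described without a test.

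The protease genes were the most level of the system. Corin (ENSMUSG00000005220; chromosome 5, 72457368 to 72661816, minus strand) lay at 379, 332, 306, 306 and 329 CPM in injured-sire libraries, against 310, 338, 364, 324, 354 and 286 CPM in uninjured-sire libraries. Apart from replicate 12, at the top, the injured-sire values lay inside the uninjured-sire range. The log2 fold change was 0.01 ± 0.0660 (SE, edgeR adjusted p = 0.991), with a 95% confidence interval of -0.13 to 0.14. Furin (ENSMUSG00000030530; chromosome 7, 80038333 to 80055184, minus strand) lay at 131, 136, 126, 128 and 145 CPM in injured-sire libraries, against 133, 142, 132, 136, 126 and 130 CPM in uninjured-sire libraries. The means differed by less than 1 CPM, at 133 ± 7.36 CPM (SD, n = 5) in injured-sire and 133 ± 5.61 CPM (SD, n = 6) in uninjured-sire libraries. The log2 fold change was -0.001 ± 0.0532 (SE, edgeR adjusted p = 0.996), with a 95% confidence interval of -0.11 to 0.11. Their signs turned under several alternatives, within -0.05 to 0.07 for Corin and -0.03 to 0.12 for Furin. Corin was 4.21-fold higher than Furin per exon length over the 12 libraries.

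**Figure D4:**
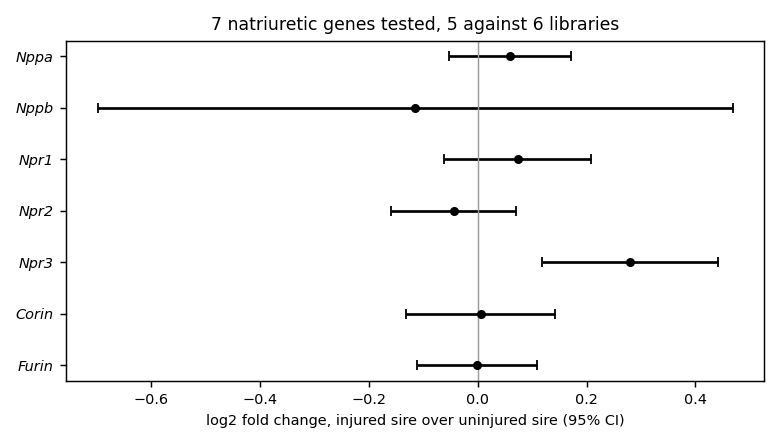
Log2 fold change, injured-sire over uninjured-sire offspring, with its 95% confidence interval for the 7 natriuretic genes that could be tested. The Npr3 interval (0.12 to 0.44) lies right of 0, that of Nppb is the widest (-0.70 to 0.47), and none of the 7 passed the threshold after adjustment over 17130 genes.

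Because Nppa is an atrial gene, its level was set against other atrial markers, a list of 11 without Nppa that holds the atrial light chain genes Myl4 and Myl7 and the calcium pump regulator gene Sln. The mean log2 CPM of the list was 6.56 ± 0.03 (SD, n = 5) in injured-sire and 6.45 ± 0.11 (SD, n = 6) in uninjured-sire libraries. The difference of 0.11 did not pass a two-sided exact permutation test over 462 splits (p = 0.0628). It was 0.06 with replicate 16 (exact permutation p = 0.444), and 0.15 without uninjured-sire replicate 20 (exact permutation p = 0.00794), so the result rests on which libraries enter. Of the 11 atrial genes 9 were higher (against 50.1% of all genes) and 1, Bmp10, passed (against 0.105% of all genes; log2 fold change 0.29 ± 0.0531 SE, edgeR adjusted p = 0.0243), at 287 ± 14.2 CPM (SD, n = 5) in injured-sire and 235 ± 13.5 CPM (SD, n = 6) in uninjured-sire libraries. The list, Bmp10 included, was chosen with earlier results of these data known, so these shares are a description only. With the atrial score as a covariate the log2 fold change of Nppa was -0.02 (edgeR adjusted p = 0.971) and that of Npr3 was 0.29 (edgeR adjusted p = 0.324).

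Across the 11 libraries Nppa went with the atrial marker level, with a Pearson r of 0.77 (permutation p = 0.00484, adjusted p = 0.136 over 28 pairs) and a Spearman rho of 0.81 (permutation p = 0.0035, adjusted p = 0.0980). Without the 2 libraries farthest from the median atrial level, uninjured-sire replicates 19 and 23, r was 0.50, so the size of r depends on them. Without uninjured-sire replicate 19 and injured-sire replicate 16, r was 0.74. Within the 6 uninjured-sire libraries r was 0.86 (exact permutation p = 0.0264, adjusted p = 0.724), and 5 injured-sire libraries are too few for a value of their own. With replicate 16, which had the lowest atrial level (6.23), r was 0.82 (permutation adjusted p = 0.0291). For Nppb r was 0.07 and rho 0.20 (permutation p = 0.827 and 0.557, adjusted p = 0.956 and 0.909). Of the 28 pairs among the 7 tested genes and the atrial level, that of Nppa with the atrial level was the only one with an unadjusted p below 0.05 in the 11 libraries, and none passed after adjustment. With the single atrial markers that were looked up, the r of Nppa over these libraries was lower. It was 0.16 with Bmp10, 0.35 with Sln, 0.55 with Myl7 and 0.56 with Myl4.

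**Figure D5:**
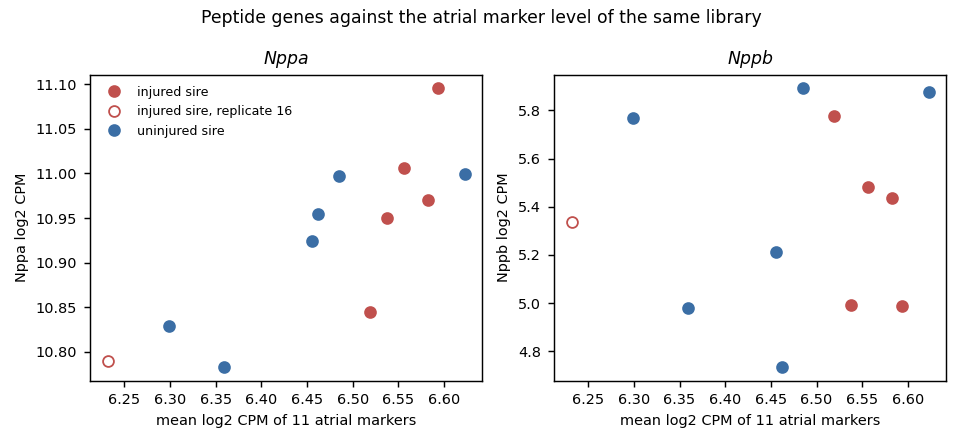
Log2 CPM of Nppa (left) and Nppb (right) against the mean log2 CPM of 11 atrial markers in the same library, for injured-sire (red, replicate 16 open) and uninjured-sire (blue) libraries. Nppa is lowest in the 3 libraries with the lowest atrial level (r = 0.77 over the 11 libraries without replicate 16), and for Nppb r is 0.07.

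For each tested gene the 2 other genes most like it in log2 CPM over the 11 libraries were taken from 10579 genes, as a description, since all values share libraries and their scaling. Nppb was most like Ryr3, a ryanodine receptor gene, and Slc38a2, an amino acid transporter gene (Pearson r = 0.90 for both), and with replicate 16 the values were 0.62 and 0.90. Npr3 was most like Stc2, the stanniocalcin-2 gene, and Nabp1, a gene for a single-stranded nucleic acid binding protein (r = 0.94 for both, and 0.89 and 0.94 with replicate 16). Among atrial genes, looked up after their values were seen, Npr3 had an r of 0.80 with Bmp10, -0.19 with Myl7, -0.22 with Myl4 and -0.35 with Sln. These were taken over both groups, and Npr3 and Bmp10 were both higher in injured-sire libraries (log2 fold change 0.28 and 0.29). The part of the group difference in the r of 0.80 was not tested. Npr1 was most like Adamts10 (0.91) and Sh3rf1 (0.90), and Npr2 most like Clu (0.92), the clusterin gene, and Vti1b (0.89). The nearest genes of Nppa were Cog2 and Ost4 (r = 0.90 for both), which dropped to 0.41 and 0.32 with replicate 16. Corin was nearest to Lrrc39 (0.91) and Btbd1 (0.90), and Furin to Cdkn1a (0.94), a cell cycle inhibitor gene, and Notch4 (0.93), and these 4 lay between 0.41 and 0.60 with replicate 16.

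Around the 8 genes, 4 lists of pathway genes were read in the same fit, and none had a gene past the threshold. Of 7 tested genes for processing and breakdown of the peptides, 6 were higher and 1 lower in injured-sire offspring, with a median log2 fold change of 0.09 against 0.00 over all genes. An unadjusted p below 0.05 was reached by 3 of the 7 (42.9%, against 8.96% of all genes), all higher, and by 1 to 3 in the 25 alternatives, 1 of 7 with the surrogate variable, with airway and fat scores and with the clock score. Mme, which encodes neprilysin, a protease that degrades natriuretic peptides, lay at 14.2 ± 2.71 CPM (SD, n = 5) in injured-sire and 10.96 ± 1.91 CPM (SD, n = 6) in uninjured-sire libraries (log2 fold change 0.37 ± 0.135 SE, edgeR adjusted p = 0.372). Replicate 16 had 9.27 CPM. The proprotein convertase genes Pcsk5 and Pcsk7 had log2 fold changes of 0.35 ± 0.141 and 0.16 ± 0.0764 (SE, edgeR adjusted p = 0.439 and 0.552), and Pcsk5 was lowest in uninjured-sire replicate 20 at 4.15 CPM, without which 2 of the 7 genes had an unadjusted p below 0.05. Galntl5 had no count in any of the 12 libraries.

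Genes that form cGMP, carry its signal or break it down were split evenly, with 11 of 22 higher and 11 lower and a median log2 fold change of -0.01. An unadjusted p below 0.05 was reached by 1 (4.55%, against 8.96% of all genes, and 0 to 3 genes in the alternatives): Kcnma1, the gene of a calcium-activated potassium channel, at 1.43 ± 0.573 CPM (SD, n = 5) in injured-sire and 0.823 ± 0.272 CPM (SD, n = 6) in uninjured-sire libraries (log2 fold change 0.78 ± 0.352 SE, edgeR adjusted p = 0.509). Pln, which encodes phospholamban, a target of cGMP-dependent kinase, lay at 4582 ± 156 CPM (SD, n = 5) in injured-sire and 4886 ± 336 CPM (SD, n = 6) in uninjured-sire libraries (edgeR adjusted p = 0.628). Ppp1r12a, a myosin phosphatase subunit gene, stood at 0.11 ± 0.0600 in log2 fold change (SE, edgeR adjusted p = 0.605).

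Transcriptional regulators of natriuretic genes were also split evenly, with 13 of 26 higher and 13 lower and a median log2 fold change of 0.00. An unadjusted p below 0.05 was reached by 7 of the 26 (26.9%, against 8.96% of all genes), 4 higher and 3 lower, and by 4 to 9 in the alternatives. Klf13, a zinc-finger factor gene, lay at 115 ± 12.2 CPM (SD, n = 5) in injured-sire and 91.5 ± 8.92 CPM (SD, n = 6) in uninjured-sire libraries (log2 fold change 0.32 ± 0.0737 SE, edgeR adjusted p = 0.0909), and replicate 16 had 111 CPM. Jarid2, a chromatin repressor gene of cardiac development, lay at 53.5 ± 2.59 CPM (SD, n = 5) in injured-sire and 45.1 ± 3.16 CPM (SD, n = 6) in uninjured-sire libraries (edgeR adjusted p = 0.155), ranges that did not overlap (as in 1.06% of all genes), but replicate 16, at 48.4 CPM, lay below the uninjured-sire maximum of 49.4 CPM. Hdac9, a histone deacetylase gene that restrains cardiac growth programmes, lay at 21.95 ± 2.24 CPM (SD, n = 5) in injured-sire and 28.05 ± 3.43 CPM (SD, n = 6) in uninjured-sire libraries (log2 fold change -0.35 ± 0.0900 SE, edgeR adjusted p = 0.167). The DESeq2 Wald test called Klf13 and Jarid2 higher and Hdac9 lower, among 130 genes (0.759%) of the whole table.

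Stress-programme genes that are often measured beside the natriuretic peptides were split 12 higher and 12 lower among 24 tested, around a median of 0.00 (log2 fold change), and 3 (12.5%, near the 8.96% of all genes) had an unadjusted p below 0.05, or 1 to 5 in the alternatives. Rcan1, a calcineurin target gene, lay at 51.3 ± 5.24 CPM (SD, n = 5) in injured-sire and 61.4 ± 4.96 CPM (SD, n = 6) in uninjured-sire libraries (log2 fold change -0.26 ± 0.0719 SE, edgeR adjusted p = 0.194), and replicate 16 was above both groups at 72.6 CPM. Postn, the gene of the matrix protein periostin, had a log2 fold change of 0.24 ± 0.0847 and Fhl1, a gene of the sarcomere stretch response, one of 0.12 ± 0.0564 (SE, edgeR adjusted p = 0.372 and 0.545). As with Nppa and Nppb, no gene of this list passed the threshold in either direction in these libraries.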

How the data were processed

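Bulk RNA-seq of 12 ventricles was deposited by the authors as raw read counts per gene. Per the file headers these were made with featureCounts 2.1.1, strand setting 2, without the paired-end option or multi-mapping reads, on Ensembl release 114 (GRCm39). The submitters' processing notes name STAR 2.7.10a and Subread 2.0.3 (a version other than the header's). Symbols came from GENCODE M21, names only, for 51487 of 78317 gene IDs with 99.3% of counts. Another 11 sample columns were not used.

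In R 4.3.3, edgeR 4.0.16 (filterByExpr with minimum count 10 and total 15, TMM factors, robust quasi-likelihood F test, two-sided, Benjamini-Hochberg, threshold 0.05) was fitted to 17130 genes in 5 and 6 libraries, and tested on simulated data. CPM are TMM-scaled, log2 CPM carry a prior count of 2, TPM use the merged exon length, and SEs come from the F statistic. Single values were compared by exact permutation and correlations by 100000 permutations. Intervals for counts cover counting error only.

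Alternatives were all 12 libraries, each library left out, DESeq2 1.42.0 size factors and Wald test, no scaling or upper-quartile factors, limma 3.58.1 voom, no filter or 1 CPM in 5 libraries, no mitochondrial genes, and covariates (sex-linked, atrial, airway with fat, and clock scores, or 1 surrogate variable from sva 3.50.0). The clock score was the mean log2 CPM of 9 clock output genes minus that of Arntl, Npas2 and Clock.

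The 8 genes, the lists and the alternatives were chosen with earlier results of these data known. Named genes are the 8, every called gene or else the 3 smallest p of each pathway list, and the 2 genes most correlated with each tested gene among genes averaging 2 or more in log2 CPM. The ring sequence of 1 peptide gene is not reported here.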

Additional observations from a re-analysis of the deposited data

Results flagged for a closer look

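Among 82 sets of values checked, each 1 quantity in 1 group of libraries, 4 held a library that stood apart from the rest of its group, where chance gives about 1 in 20. None was one of the 8 natriuretic genes. The mean log2 CPM of ventricular markers was 10.91 in injured-sire replicate 17, against 10.70 to 10.76 in the other 4 of its group. The mean log2 CPM of endothelial markers was 6.87 in uninjured-sire replicate 23, against 6.74 to 6.78 in its group. Pcsk5 was at 4.15 CPM in uninjured-sire replicate 20, against 6.40 to 7.66 CPM in its group. Ppp1r12a was at 78.6 CPM in uninjured-sire replicate 18, against 90.6 to 95.2 CPM in its group.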

How the results depend on the processing

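Npr1, Npr2 and Npr3 kept their sign in all 25 alternatives, and no alternative called Nppa, Nppb, Npr1, Npr2, Corin or Furin. Among the 8 genes 1 was called, Npr3, with no filter and with airway and fat scores. The sign of Nppa turned with the atrial score (-0.0178) and that of Nppb with the clock score (0.288). Corin turned with all 12 libraries (-0.0155), upper-quartile factors (-0.00386), no filter (-0.0129), and the sex-linked (-0.0122), atrial (-0.0244) and clock scores (-0.00803), and ran from -0.0505 to 0.0371 with single libraries left out. Furin turned with DESeq2 size factors (0.00101), no scaling (0.0140), the Wald test (0.000857), the CPM filter (0.00284), the surrogate variable (0.0198), and the atrial (0.0235), airway and fat (0.0158) and clock scores (0.122), and ran from -0.0333 to 0.0186 with libraries left out. The cause was not tested. Leaving out single libraries gave 0.24 to 0.33 for Npr3, 0.03 to 0.09 for Nppa, -0.24 to -0.02 for Nppb, and 0.0809 to 0.146 for the atrial marker difference.

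With the clock score, which itself differed between the groups, the 18 edgeR calls over all genes became 0 (937 at an unadjusted p below 0.05). The 18 calls became 130 with the DESeq2 Wald test, 236 with no filter and 28 with the CPM filter. They ran from 8 to 43 with single libraries left out: 28 without replicate 12, 8 and 9 without 13 or 14 (injured-sire), 43 and 9 without 22 or 23 (uninjured-sire). Of the 18, 9 were higher, against 17 of 25 with no scaling and 7 of 19 with upper-quartile factors. Regulators of natriuretic genes had 1 call (Klf13) with no scaling, the surrogate variable, and airway and fat scores, 2 (Klf13, Hdac9) with no filter, 3 with the Wald test, and 0 to 1 with single libraries left out (Klf13 without injured-sire replicate 15 or uninjured-sire replicate 19). Stress genes had 1 (Rcan1) with no filter. Nppa went with the atrial level at r = 0.83 (permutation adjusted p = 0.0280) with no scaling. No paired analysis was possible because no replicate number occurs in both groups. With 5 and 6 libraries the half-width of the 95% confidence interval was 0.11 (Furin) to 0.58 (Nppb) on the log2 scale before adjustment, and changes larger than this could still miss the adjusted threshold, as for Npr3 (0.28 with a half-width of 0.16).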
